A study of Mus musculus with 18 samples.

Results

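Egfr and 7 genes that act with it or beside it at the hepatocyte surface were followed in mouse liver: the receptors Egfr, Erbb2, Erbb3, Met and Fgfr4, the co-receptor Klb, the intracellular inhibitor Errfi1 and the ligand gene Egf. The genes were taken by symbol, as 8 of the 52230 genes to which the transcripts in the files could be joined. The set was chosen by the counts of Egfr, which stood out in the comparison of the 2 female genotypes, so every value of these genes in that comparison is a description without a test.

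The livers came from the mouse line GCKR-P446L-EMI-B6N, in which the glucokinase regulatory protein GKRP, the product of Gckr, carries leucine (LL) in place of proline (PP) at residue 446 (P446L). The 18 libraries, each from 1 mouse, were from 8 males, 4 PP and 4 LL, and 10 females, 5 PP and 5 LL, all on a standard chow diet. By their labels the PP mice of both sexes were 9 to 14 weeks old, male LL mice 13 to 14 weeks and female LL mice 11 to 14 weeks, while the series text gives 14 weeks for all. The fits with age as a term use the labels. The change is present in every cell of the LL mice, and whole liver was sequenced, so fewer cells of a type and less RNA per cell cannot be told apart. The number after a group name identifies a mouse, and within each group the labelled age rises or stays level with it. Fits with that number as a block are therefore not free of age.

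EGFR binds EGF, TGF-alpha, amphiregulin and related ligands, pairs with itself or with ERBB2 or ERBB3, and signals through the Ras-ERK and PI3K routes, and in liver it is known for its part in regeneration. MET is the receptor of hepatocyte growth factor, which serves the same process. FGFR4 with its partner beta-Klotho, the product of Klb, receives FGF15 from the gut and lowers bile acid synthesis. ERRFI1 binds the kinase domain of EGFR and inhibits it, and its gene is itself induced by growth factor signals.

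Each library held 3794671 to 6613905 estimated counts. The long-transcript fragment length, read from the gap between transcript length and effective length, differed between female PP (448 ± 108 bases, SD, n = 5) and female LL (292 ± 52.1 bases, n = 5; two-sided exact permutation test, p = 0.0159), and the mitochondrial share of counts stood at 10.2% ± 1.11 and 12.5% ± 1.34 in the same groups (p = 0.0317). Between male PP and male LL the exact p was 0.286 for fragment length and 0.171 for the mitochondrial share, where the smallest p that 4 mice against 4 can give is 0.0286. The 5 acute phase genes (Saa1, Saa2, Saa3, Lcn2 and Orm2) summed to between 963 and 21791 normalized counts in male PP, with the highest sum in male PP 2, and to between 210 and 1050 in the other 3 groups. All 5 hepatocyte markers found (Alb, Apoa1, Ttr, Cyp2e1 and Cps1) were tested. Their summed normalized counts ran from 412431 to 508548 in PP males, 492547 to 601399 in LL males, 712839 to 830246 in PP females and 617405 to 744358 in LL females, with no overlap between the sexes, and their part in the sex comparisons was not tested. Gckr itself was 518 ± 82.2, 478 ± 24.6, 611 ± 114 and 592 ± 60.6 normalized counts in PP and LL males and in PP and LL females, and did not pass the test between genotypes in males (log2 fold change -0.12 ± 0.15 SE, DESeq2 adjusted P = 0.860) or in females (-0.05 ± 0.13, adjusted P = 0.914), which does not check the genotype, since the change alters 1 residue.

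Egfr (ENSMUSG00000020122, GRCm39 chromosome 11, 16702198 to 16868158, plus strand) was read from 2 main annotated transcripts. Egfr-201, of 10208 bases and 28 exons, carries the full coding sequence of 3630 bases and held 83.8% of the gene's counts. Egfr-202, of 2943 bases and 16 exons, holds a coding sequence of 1965 bases, 54.1% of the full one. The 2 share exon 16 up to position 16837185, after which Egfr-202 reads on into the intron to a stop codon ending at 16837228 and Egfr-201 goes on with exon 17 at 16839913. The stretch around this point is shown because it is what tells the 2 transcripts apart, with the shared bases of exon 16 in lower case and the next 43 bases of each transcript in capitals (GRCm39, plus strand, from 16837141).
Egfr-202: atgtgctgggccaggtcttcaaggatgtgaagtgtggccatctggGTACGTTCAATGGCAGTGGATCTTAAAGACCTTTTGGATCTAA
Egfr-201: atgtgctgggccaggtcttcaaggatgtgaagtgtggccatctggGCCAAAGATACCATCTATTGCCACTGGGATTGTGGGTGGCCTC
The first of these ends at its stop codon, and the shorter coding sequence stops before the kinase domain.

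Egfr was highest in male PP, lowest in female LL, and at like levels in male LL and female PP. Counts below are divided by the DESeq2 size factor of the library (normalized counts). In male PP the 4 libraries held 4322, 4201, 4196 and 3056. In male LL they held 1481, 3495, 1168 and 1948. In female PP the values were 3014, 1639, 2007, 1488 and 2120, and in female LL 1372, 1320, 852, 352 and 752. The highest and lowest libraries were thus 12.3-fold apart. Male LL 2 lay within the range of male PP and the other 3 male LL libraries lay below it, while no female LL library reached the lowest female PP library. Here and below, the share of all genes whose groups do not overlap was not counted.

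**Figure D1:**
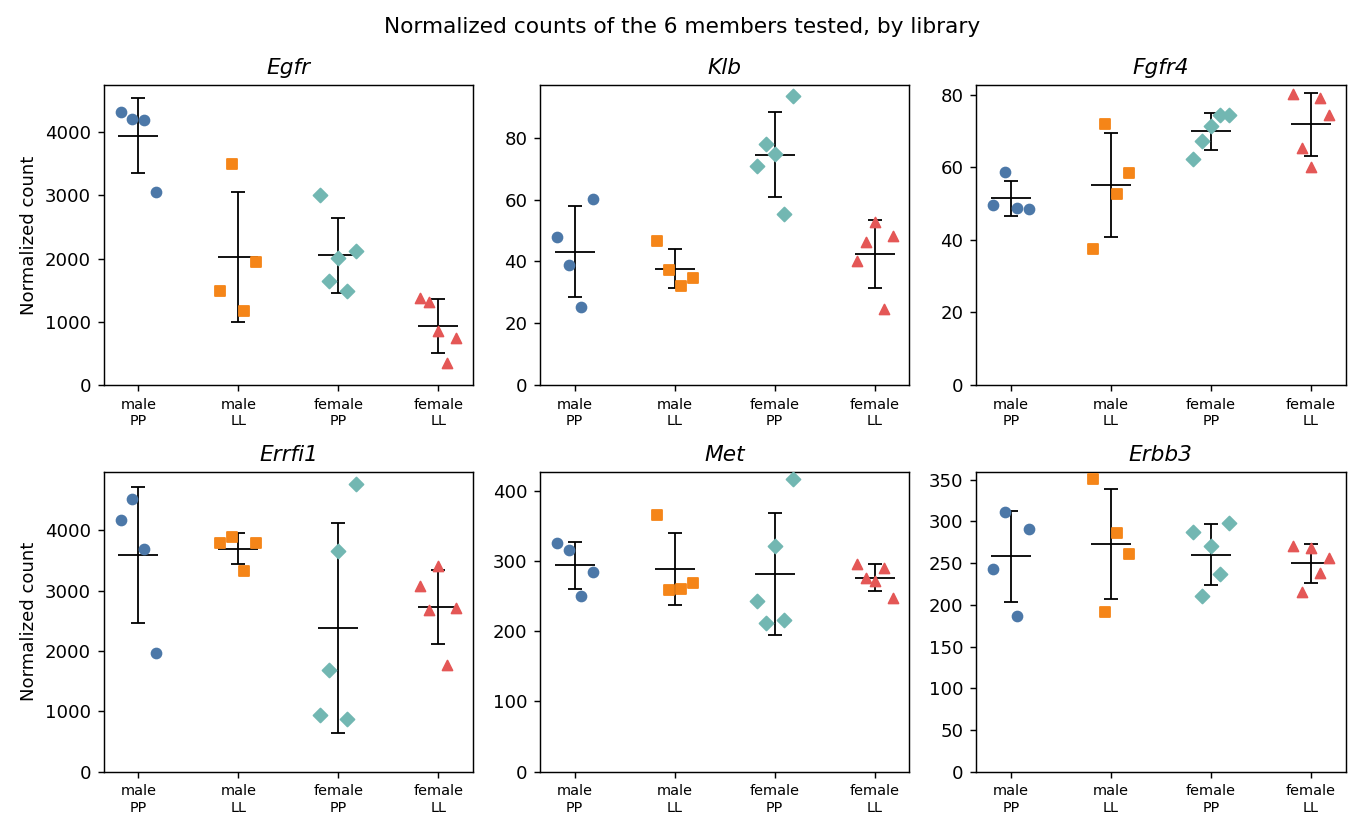
Normalized counts of Egfr, Klb, Fgfr4, Errfi1, Met and Erbb3 on linear axes that start at 0, with 1 point per library, a bar for the mean and whiskers for 1 SD (n = 4, 4, 5 and 5). Egfr has means from 3944 in male PP to 930 in female LL, Klb is highest in female PP at a mean of 74.6, and Met and Erbb3 have group means between 250 and 294.

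The male genotype comparison asks whether the LL change alters liver expression in males. Mean Egfr was 3944 ± 595 (SD, n = 4) in male PP and 2023 ± 1032 (n = 4) in male LL, a log2 fold change of -0.96 ± 0.34 (SE), and it did not pass the test (DESeq2 adjusted P = 0.175). Without independent filtering its adjusted P was 0.327. In this comparison 0.283% of the 10938 genes tested were called, and 3301 of the 10938 had an adjusted P. Called means an adjusted P under 0.05 and a fold of at least 1.3 or at most 0.7. DESeq2 gave Klb and Fgfr4 no adjusted P there, so it could not call them. It called 0 of the 6 members tested, and edgeR's quasi-likelihood test also called 0. With DESeq2, 1 of the 6, Egfr, had an unadjusted p under 0.05, beside 7.80% of all genes tested. Without male LL 2 the log2 fold change was -1.36 and passed (adjusted P = 0.0161). Over the 21 other settings tried it lay between -1.36 and -0.57, with adjusted P between 0.0161 and 0.803.

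In females Egfr averaged 2053 ± 596 (SD, n = 5) in PP and 930 ± 424 (n = 5) in LL, a log2 fold change of -1.14 ± 0.31 (SE). This is the comparison in which Egfr was picked out. In it 0.695% of the 10938 genes tested were called, and 7962 of the 10938 had an adjusted P. The change in females less that in males was -0.18 ± 0.46 on the log2 scale, with a 95% interval from -1.09 to 0.73.

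The sex comparisons use the same female libraries on which Egfr was chosen, so its values there are a description as well. Egfr in female PP against male PP had a log2 fold change of -0.94 ± 0.33 (SE), with no overlap between the 2 groups. There 6.45% of all genes tested were called. In female LL against male LL the log2 fold change was -1.12 ± 0.33, and 6.11% of all genes were called. The LL groups overlapped, as female LL 1 and female LL 2 lay above male LL 3. Without male LL 2 the value between LL groups was -0.72.

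**Figure D2:**
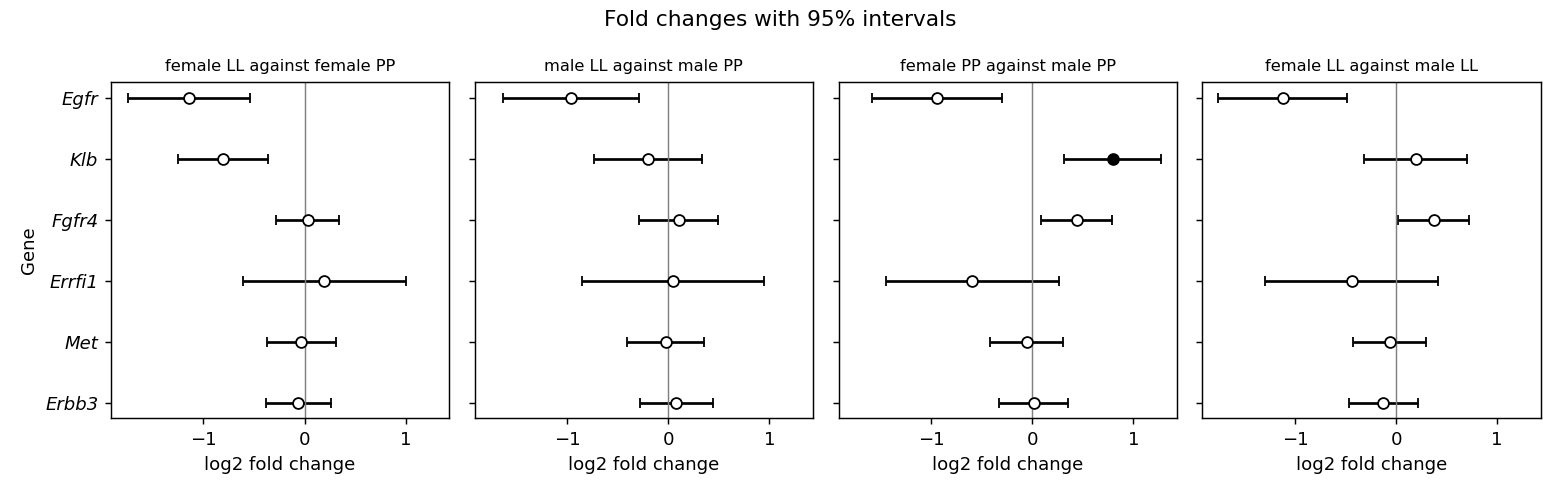
Log2 fold changes (points) with 95% intervals (whiskers) of the 6 members tested, in 4 panels for the genotype comparison in females, the genotype comparison in males, and the sex comparisons within PP and within LL. The filled point passed the test, which was not read for any member in the female genotype panel or for Egfr in the sex panels. Egfr lies below 0 in each panel, from -1.14 to -0.94, and the filled point is Klb at 0.80 in PP.

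The fragment length of the library moved with the female genotypes, and the Egfr transcript is long, so Egfr was set beside it. Among the 10 female libraries ordered by fragment length, the shortest 4 were all female LL, followed by female PP 4 (369 bases, 1488 normalized counts) and female LL 3 (377 bases, 852). With fragment length as a term in the fit the log2 fold change of Egfr was -1.33 in females, -1.12 in males, -1.003 between PP groups and -1.21 between LL groups. Its own coefficient for Egfr was -0.12 ± 0.12 (SE) per 100 bases (DESeq2 adjusted P = 0.998). The part of the mitochondrial share in these values was not tested. Without male PP 2, the library with the highest acute phase sum, the male log2 fold change of Egfr was -0.93.

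**Figure D3:**
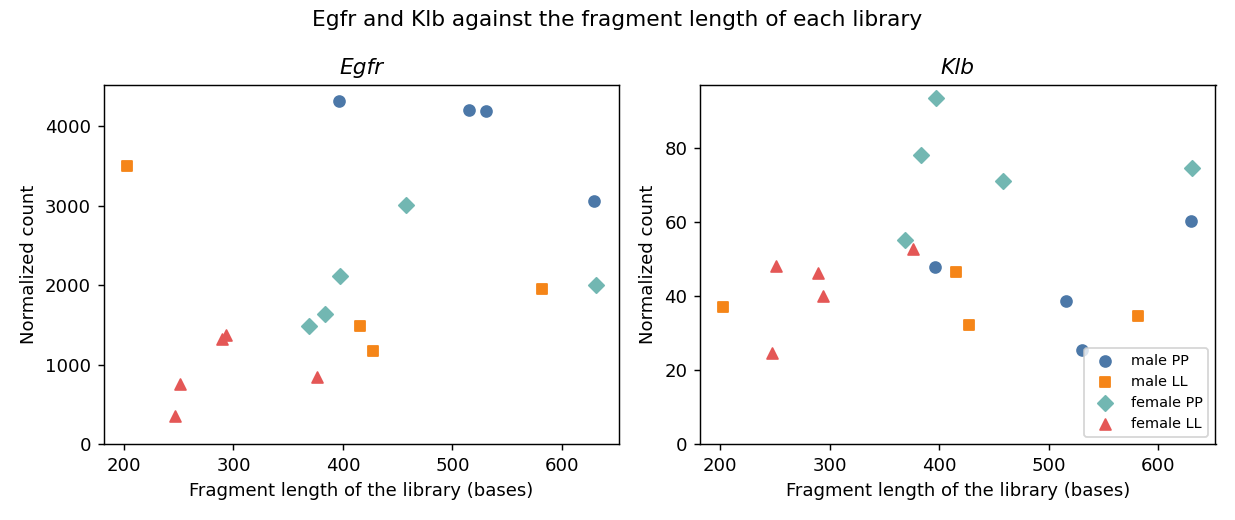
Normalized counts of Egfr (left) and Klb (right) against the fragment length of the library in bases, with 1 point per library and a symbol per group. Female LL libraries lie between 247 and 377 bases and female PP between 369 and 631 bases. Male LL 2, at 202.9 bases the shortest of all, held 3495 normalized counts of Egfr.

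On the per-length scale (TPM, the share of transcripts in a library after length is taken into account) the genotype difference of Egfr in males was smaller. Over transcripts of at least 1000 bases Egfr averaged 47.6 TPM in male PP, 38.1 in male LL, 42.7 in female PP and 20.4 in female LL. TPM is a share of the whole library, and the Mup genes, which encode abundant urinary proteins, took 32.5% to 44.9% of it in male PP, 17.8% to 28.4% in male LL, 5.66% to 17.4% in female PP and 3.51% to 10.9% in female LL. The median log2 TPM ratio over all genes tested was off 0, at 0.34 for male LL against male PP, -0.11 for female LL against female PP, 0.74 for female PP against male PP and 0.29 for female LL against male LL. The median used the whole-gene TPM of each gene, and Egfr only its transcripts of at least 1000 bases. Relative to that median Egfr stood at -0.66, -0.95, -0.90 and -1.19 in the same order. A short transcript, Egfr-203 of 463 bases, took 41.9 counts in library male PP 1 and 47.7 in library male LL 4. It took 45.8% and 68.6% of the TPM of Egfr there, so whole-gene TPM was not used for Egfr in these contrasts.

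The share of Egfr-202 among the counts of Egfr was 16.5% ± 3.75 (SD, n = 4) in male PP, 23.3% ± 11.5 (n = 4) in male LL, 11.8% ± 6.90 (n = 5) in female PP and 14.9% ± 6.57 (n = 5) in female LL. Two-sided exact permutation tests gave p = 0.343 for the male genotypes, p = 0.262 between the PP groups and p = 0.206 between the LL groups. Both transcripts were highest in male PP and lowest in female LL. Egfr-201 averaged 3274 ± 567, 1619 ± 1057, 1788 ± 444 and 778 ± 320 normalized counts in PP and LL males and in PP and LL females. Over the same groups Egfr-202 averaged 643 ± 146, 390 ± 38.0, 262 ± 194 and 151 ± 123. Male LL 2 had the lowest share among male LL libraries at 10.3%, and male LL 3 the highest of all at 38.0%. Without male LL 2 the male difference was 11.1 rather than 6.78 percentage points (exact p = 0.0286, the smallest that 3 mice against 4 can give), and without male LL 3 it was 1.87 (exact p = 0.686).

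**Figure D4:**
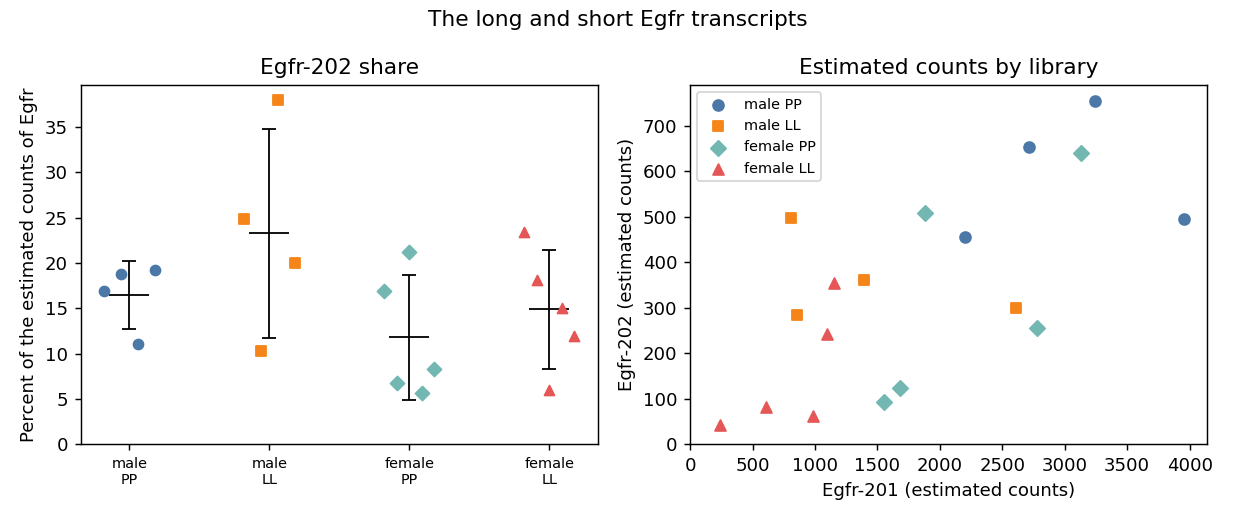
Left, the share of the estimated counts of Egfr on Egfr-202 in percent, 1 point per library, with a bar for the mean and whiskers for 1 SD. Right, the estimated counts of Egfr-202 against those of Egfr-201 by library. Shares span 5.64% to 38.0%, and groups overlap on the left.

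The other ERBB receptors were either flat or near the limit of detection. Erbb3 (ENSMUSG00000018166), which has little kinase activity of its own and signals through its partners, averaged 258 ± 55.0, 273 ± 65.9, 260 ± 36.4 and 250 ± 23.1 normalized counts in PP and LL males and in PP and LL females. Its log2 fold changes lay between -0.13 and 0.08 in the 4 comparisons, and the 95% interval in males ran from -0.28 to 0.44. Erbb2 (ENSMUSG00000062312), the partner without a ligand of its own, had 30 counts in all 18 libraries, too few to test. Those counts were 2 in male PP, 3 in male LL, 16 in female PP and 9 in female LL, and 6 libraries held none. Its exons overlap Mien1 on the opposite strand.

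Errfi1 (ENSMUSG00000028967) varied widely between the mice of the PP groups and less in the LL groups. In female PP it held 933, 1684, 3660, 871 and 4763 normalized counts, and in female LL 3080, 2678, 3413, 1763 and 2717. In male PP it held 4178, 4512, 3692 and 1971, and in male LL 3783, 3895, 3323 and 3784. The coefficient of variation was 73.2% in female PP, 22.6% in female LL, 31.5% in male PP and 6.88% in male LL. The difference in spread was not tested, and male PP 4 alone lay low in its group. The log2 fold change was 0.04 ± 0.46 (SE) in males (DESeq2 adjusted P = 0.996), 0.20 ± 0.41 in females, -0.59 ± 0.44 between PP groups (adjusted P = 0.554) and -0.44 ± 0.44 between LL groups (adjusted P = 0.632). Over the other settings the value between PP groups ran from -1.01 (without female PP 5, adjusted P = 0.0555) to -0.38 (without female PP 4), and that in females from -0.02 to 0.77. The intervals are wide, and in males the 95% interval ran from -0.86 to 0.94.

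Met (ENSMUSG00000009376) averaged 294 ± 33.7, 288 ± 51.7, 282 ± 87.0 and 276 ± 19.0 normalized counts in PP and LL males and in PP and LL females, and its 4 log2 fold changes lay between -0.06 and -0.03. The widest of the 95% intervals, in males, ran from -0.41 to 0.36. Its ligand gene Hgf, made mostly by stellate cells, was higher in female PP (24.3 ± 9.84) than in male PP (8.79 ± 5.56, DESeq2 adjusted P = 0.0422). The summed stellate cell markers were 755 to 1000 in female PP and 302 to 627 in male PP, and the endothelial markers 257 to 531 and 130 to 245, and their part in this difference was not tested. Hgfac, the protease that activates that ligand, was higher in females within PP (578 ± 99.8 against 389 ± 55.5, adjusted P = 0.0399) and within LL (610 ± 118 against 345 ± 96.7, adjusted P = 9.26e-04).

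Klb (ENSMUSG00000029195) stood out in 1 group. Female PP held 71.1, 78.2, 74.7, 55.3 and 93.7 normalized counts, and female LL 40.1, 46.4, 52.9, 24.7 and 48.1. Male PP held 48.0, 38.8, 25.4 and 60.3, and male LL 46.7, 37.2, 32.1 and 34.6. Every female PP library was above every female LL library, and only male PP 4 lay within the range of female PP. The PP sex comparison shares the female PP libraries with the female genotypes. In it female PP was higher than male PP by 0.80 ± 0.24 on the log2 scale (SE, DESeq2 adjusted P = 0.0209). This was the 1 call among the 5 members tested there other than Egfr, beside 6.45% of all genes tested. This call was lost in 7 of 22 other settings, with adjusted P up to 0.161, among them edgeR (0.0534), the replicate number as a block (0.143) and the fit without male PP 2 (0.0895). Between genotypes the log2 fold change was -0.80 ± 0.23 in females, as a description, and -0.20 ± 0.27 in males, where DESeq2 gave no adjusted P because of the low count (unadjusted p = 0.461). Between LL groups it was 0.20 ± 0.26 (adjusted P = 0.737).

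In the same female libraries the summed level of 5 Kupffer cell markers, all tested, was 753 to 932 normalized counts in female PP and 448 to 722 in female LL. The 6 stellate cell markers summed to 755 to 1000 and 459 to 994, the 5 endothelial markers to 257 to 531 and 190 to 372, and the 5 cholangiocyte markers, of which 1 was tested, to 53.4 to 117 and 74.0 to 137. The 5 blood markers, of which 3 were tested, went from 967 to 1640 in female PP and from 855 to 4848 in female LL. In males, PP first and LL second, the ranges were 406 to 1050 and 355 to 663 for Kupffer cells, 302 to 627 and 536 to 845 for stellate cells, 130 to 245 and 183 to 239 for endothelium, 74.7 to 118 and 54.4 to 73.1 for cholangiocytes and 1144 to 4376 and 596 to 2965 for blood. No marker of these lists was at 0 throughout. Their part in the values of Klb and Egfr was not tested.

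Fgfr4 (ENSMUSG00000005320), the receptor that Klb serves, had the same sign as Klb between the sexes but did not follow it between the female genotypes. It held 49.6, 58.8, 48.9 and 48.6 normalized counts in PP males and 62.3, 67.3, 71.3, 74.3 and 74.3 in female PP. The log2 fold change of 0.44 ± 0.18 (SE) missed the threshold (DESeq2 adjusted P = 0.127), as did 0.37 ± 0.18 between the LL groups (adjusted P = 0.218). Between genotypes it was 0.10 ± 0.20 in males, where DESeq2 gave no adjusted P (unadjusted p = 0.606), and 0.03 ± 0.16 in females.

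Of the 5 other genes of the bile acid axis, all tested, Cyp8b1, the enzyme that sets the cholic acid share, was lower in female PP (377 ± 230 normalized counts) than in male PP (1310 ± 332, DESeq2 adjusted P = 0.0153). It was 1102 ± 137 in female LL and 1747 ± 711 in male LL, and neither genotype comparison passed (adjusted P = 0.0873 in females and 0.868 in males). Cyp7a1, Nr0b2, Nr1h4 and Nr5a2 were not called in any of the 4 comparisons. Nr0b2, at a mean of 50.7 normalized counts, was too low for a DESeq2 adjusted P between male genotypes and could not be called there.

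Egf (ENSMUSG00000028017), the ligand gene, had 23 counts in 18 libraries and was not tested, and the kidney markers Umod, Slc12a1 and Aqp2 were at 0 in every library. Among 9 of 10 other ErbB ligand genes found, 2 were tested, Tgfa and Nrg4, and neither was called in any of the 4 comparisons. With means of 43.8 and 48.8 normalized counts they were too low for a DESeq2 adjusted P between male genotypes. DESeq2 could therefore not call them there. Areg, Epgn, Nrg2 and Nrg3 had no count in any library, Ereg had 4, Hbegf had 27 and Btc had 66 over the 18 libraries.

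Of 21 tested genes of 22 for adaptors and kinases of the Ras-ERK and PI3K routes, of 14 tested of 19 negative regulators and of 4 genes for ligand shedding, 0 were called in any of the 4 comparisons by DESeq2 or by edgeR. Unadjusted DESeq2 p-values under 0.05 numbered 2, 1 and 0 of them in males, 2, 3 and 1 between female genotypes, 1, 4 and 1 between PP groups and 2, 3 and 1 between LL groups. Over all genes tested the share with such a p was 7.80%, 13.0%, 17.5% and 20.0% in the same order, beside the shares called given above. Between male genotypes DESeq2 gave no adjusted P to genes of low mean count, up to at least the 88.2 normalized counts of Fgfr2. All 4 shedding genes, every tested negative regulator but Dusp6, and some adaptors and kinases lay lower. DESeq2 could therefore not call them there. Between female genotypes this held up to at least the 15.7 of Hgf, and so for Rhbdf1 and Rhbdf2. Of 7 tested immediate early and growth genes of 12, Ccnd1, the cell cycle gene for cyclin D1, was higher in females, at 541 ± 97.3 normalized counts in female PP against 156 ± 55.1 in male PP (adjusted P = 6.61e-11) and 501 ± 171 in female LL against 176 ± 34.7 in male LL (adjusted P = 1.76e-07). Its log2 fold change between genotypes was 0.18 ± 0.27 in males and -0.11 ± 0.23 in females, neither past the test.

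The related receptors and the other surface receptors of liver had calls in the sex comparisons and 0 in the genotype comparisons, where unadjusted DESeq2 p-values under 0.05 numbered 5 of 24 other receptors and 0 of 8 related genes in males and 2 of each in females, beside 7.80% and 13.0% of all genes. Of 8 tested related receptor and ligand genes of 11, 3 were higher in female PP than in male PP (Hgf, Hgfac and Fgfr2) and 1 in female LL than in male LL (Hgfac). With edgeR 0 of the 8 were called within PP and 1, Hgfac, within LL. Fgfr2 was 119 ± 25.4 against 68.7 ± 26.6 normalized counts (adjusted P = 0.0224). Between male genotypes DESeq2 gave no adjusted P to Fgfr2 or to listed genes of lower mean count, so it could not call them there. Of 24 tested other receptors of 25, 4 were higher and 1 lower in female PP, and 2 were higher and 1 lower in female LL. Prlr, the prolactin receptor, had the largest such difference by adjusted P, at 1042 ± 147 against 228 ± 19.0 in PP (adjusted P = 1.53e-20). In males Lepr, the leptin receptor gene, had an unadjusted p of 1.39e-08 and no adjusted P, because independent filtering set its low count aside. It was called there without independent filtering (log2 fold change 2.96, DESeq2 adjusted P = 3.81e-05) and by edgeR (adjusted P = 0.0468), the 1 list gene that edgeR called between genotypes. Lepr and Notch2 were also higher in female PP, and Lrp1 was the other receptor higher in female LL, a call that edgeR did not make. Tgfbr2, a receptor for TGF-beta, was lower in females within PP (37.9 ± 11.5 against 87.2 ± 8.91, adjusted P = 2.33e-05) and within LL (32.2 ± 6.57 against 68.9 ± 19.2, adjusted P = 5.84e-04). The median log2 fold change of the 24 was 0.14 within PP and 0.15 within LL, beside 0.00 and 0.01 over all genes tested.

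Levels of different genes can be set side by side only per length. Over transcripts of at least 1000 bases and all 18 libraries, which pool groups that differ, Errfi1 had a mean of 141 TPM, Egfr 36.6, Erbb3 5.91, Met 5.64, Fgfr4 2.85, Klb 2.19, Erbb2 0.051 and Egf 0.043. The order of neighbours was the other way round in 1 library for Errfi1 and Egfr, in 7 for Erbb3 and Met, in 5 for Fgfr4 and Klb and in 6 for Erbb2 and Egf, and in 0 of 18 for the other neighbours. With all transcripts Met (6.27 TPM) was above Erbb3 (5.91) and Egf (0.091) above Erbb2 (0.078).

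The genes whose level followed Egfr most closely over the 18 libraries were found by the Pearson correlation of log2 normalized counts, as a description over libraries that share group and sex. The highest were Gm53019 (r = 0.91), Serpina9 (0.91), Trip4 (0.89), P2ry2 (0.89) and Serpina4-ps1 (0.87). The lowest were Cnst (-0.88), Papss2 (-0.88), Mpc1 (-0.87), Plgrkt (-0.86) and Gas1 (-0.85). Several had low counts beside the mean of 2154.5 normalized counts of Egfr. In the order given the first 5 averaged 24.5, 7.40, 169, 34.7 and 416 normalized counts. Averages of the last 5 were 30.7, 944, 986, 19.3 and 40.3. With normalized counts per kilobase of effective length in place of normalized counts, r was 0.80 to 0.87 for the first 5, and -0.64, -0.80, -0.31, -0.39 and -0.70 for the last 5 in the order given, so the likeness of Mpc1 and Plgrkt depended on the scale. None of the other members tested was close to Egfr, with r from -0.39 for Fgfr4 to 0.23 for Errfi1.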

How the data were processed

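Total RNA from whole liver was sequenced from 18 mice, after selection of samples for RNA integrity. The authors checked reads with FastQC, did not trim them, and quantified transcripts with Salmon 1.4.0 against GENCODE release M26 (GRCm39), as the submitters' processing notes and the study's methods give it. The deposited tables hold, per transcript, estimated counts (expected counts) and TPM. Transcripts were joined to genes through GENCODE M39 of the same build, which held 137570 of 139225 transcripts and at least 99.76% of the counts of each library. Estimated counts were summed per gene and rounded. A single DESeq2 1.42.0 fit (R 4.3.3) of all 18 libraries with 4 groups tested the 10938 genes that reached 10 counts in 4 or more libraries. Independent filtering was set for 0.05, and Benjamini-Hochberg adjustment ran only over the genes it kept. An adjusted P was given for 3301 genes between male genotypes and 7962 between female genotypes. It was given for 10930 in each sex comparison and 6905 for the genotype by sex term. Where independent filtering gave no adjusted P, none is printed. edgeR 4.0.16, other size factors, filters, covariates and left-out libraries were alternatives. The scripts were tested on simulated data. The planned tests of Egfr between the sexes are not read, since its choice used the female libraries. Fragment length was taken as transcript length less effective length, by its median over transcripts of 3000 bases or more. Precision is limited by the number of mice, and the p-values set differences between groups against the variation between mice.

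The members and lists were chosen with earlier results of these data known. Named genes are the 8 members, list genes called in a genotype or sex comparison (at most 6 a list and comparison), the 5 genes most and the 5 least correlated with Egfr, and Gckr. Genes given with 0 or few counts, and list genes given as not called, were named after their values were seen. Of the called list genes, 1 is not reported here by name.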

Additional observations from a re-analysis of the deposited data

Results flagged for a closer look

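Among 24 groups of values of the members tested, 3 had a library that lay apart from the rest, where chance alone marks about 1 in 20 groups. Egfr in male PP 4 was 3056 normalized counts, below the 4196 to 4322 of the other 3 male PP libraries. Met in male LL 1 was 365 normalized counts, above the 259 to 269 of the other male LL libraries. Fgfr4 in male PP 2 was 58.8 normalized counts, above the 48.6 to 49.6 of the other male PP libraries.

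The genotype difference of Lepr, the leptin receptor gene of the surface receptor list, differed between the sexes (genotype by sex term -3.47 on the log2 scale, DESeq2 adjusted P = 5.49e-05). edgeR, a test added after seeing the data, gave -3.44 and did not call it (adjusted P = 0.143), and called 0 genes for this term, with 676 at an unadjusted p under 0.05, against 15 genes with DESeq2. Lepr was 4.02 ± 1.29 normalized counts in male PP, 31.2 ± 20.7 in male LL, 69.6 ± 23.5 in female PP and 49.2 ± 14.5 in female LL.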

How the results depend on the processing

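The direction of Egfr held in every comparison under each setting tried, and its side of the threshold between male genotypes did not. Between the sexes its choice used the female libraries, so only its log2 fold changes are given there. In male LL against male PP, where 0 members were called, the fit of the 2 groups alone gave 1 (Egfr, -0.96) and so did the fit with the replicate number as a block (Egfr, -0.99), and fits without 1 library gave 0 to 1, with Egfr from -1.36 to -0.77. In female PP against male PP the call of Klb was lost with edgeR, the replicate block, and the replicate block with fragment length. It was also lost without male PP 2, male PP 3, female PP 2 or female PP 5. Egfr there was -1.02 with the length offset over transcripts of at least 1000 bases, -1.003 with fragment length and -1.08 with age. It was -0.94 with the 2 groups alone, -0.93 with the replicate block and -1.12 to -0.85 without 1 library. In female LL against male LL Egfr was -1.12 with edgeR and with the 2 groups alone, and -1.31 to -0.72 without 1 library. The causes were not tested.

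Over all genes, 31 were called between male genotypes, against 3 with edgeR, 53 with a length offset and 20 to 62 without 1 library (20 without male PP 2 and 62 without male LL 4). Between female genotypes 76 were called, against 3 with edgeR, 28 with a length offset, 13 with fragment length, 44 with age, 14 with the replicate block and fragment length, and 28 to 272 without 1 library. In female LL against male LL 668 were called, against 433 with fragment length, 310 with the replicate block and fragment length, and 461 to 803 without 1 library.

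Same-numbered mice did not deviate together (3 of 17 pairs correlated above 0.1, and 5 of 17 mice correlated best with their own number), so the numbers were not taken as pairs. Members near 0 changed sign. In males these were Met with either length offset (0.29, or 0.044 over transcripts of at least 1000 bases), fragment length (0.00064) and the block with fragment length (0.0602), Klb with the last of these (0.0194) and Errfi1 with age (-0.0813). Between PP groups they were Erbb3 with the block (-0.0394) and Met with the length offset (0.38), and between LL groups Erbb3 with the block and fragment length (0.0193). Without 1 library the ranges in males were -0.0626 to 0.21 for Erbb3, -0.16 to 0.0252 for Met, -0.0397 to 0.23 for Fgfr4, -0.40 to 0.0323 for Klb and -0.16 to 0.17 for Errfi1. They were -0.12 to 0.12 for Erbb3 and -0.24 to 0.0336 for Met between PP groups, and -0.26 to 0.0135 and -0.11 to 0.0699 between LL groups. The male Egfr-202 difference was 1.87 to 11.1 percentage points without 1 library, and the fragment length difference between LL groups -183 to -56.9 bases (-183 without male LL 2, exact p = 0.0179). Independent filtering set for 0.1 and the length offset over transcripts of at least 1000 bases were added after seeing the data, and the former changed no count of members called. Counts under 10 in most libraries left Erbb2 and Egf untested.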
